A study of Mus musculus with 24 samples.

Results

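SEG cells were set against control fibroblasts at day 3, with 3 libraries on each side, 6 of the 24 libraries of the series. The libraries were chosen by their labels alone, and all 14804 genes that passed the filter on low counts, of 35727 in the table, were compared. All were mouse heart cells grown in EGM2, a medium made for endothelial cells, from which messenger RNA was sequenced. The SEG group carries the label of induced endothelial cells (iEC, or aiEC), and the control group that of fibroblasts. Erg and Sox17 cells, also labelled as induced endothelial cells and harvested on the same day with 3 libraries each, are used below as 2 further comparisons, and SEG and control at day 7 as a later time. The study asked how far each condition took on endothelial gene expression. The labels do not spell out SEG, and they give no vector, promoter, strain, age or count of animals. Nor do they tell whether a group's libraries are separate cultures. The p-values therefore reflect only how far the 24 libraries, fitted together, scatter within their groups, and some or all of that scatter may be technical.

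Total counts were 19467852 to 26827713 in the SEG libraries and 18794422 to 21332347 in the control libraries. Mitochondrial genes took 1.51% to 1.62% of the counts in SEG and 1.39% to 1.48% in control, and ribosomal protein genes 4.71% to 5.17% in SEG and 4.37% to 4.48% in control. The 50 genes with most counts took 16.5% of each SEG library and 18.2% to 18.8% of each control library. Levels are CPM, counts relative to the TMM-scaled library size, given in the order of the replicate numbers or as mean ± SD over 3 libraries. Log2 changes are SEG over control, with their standard error (SE), from edgeR's quasi-likelihood fit to all 24 libraries. Genes with a Benjamini-Hochberg adjusted p under 0.05 over all 14804 genes were called, and "rose" and "fell" are kept for those. A gene that did not pass in this fit is not thereby shown to be unchanged.

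Endothelial cells line blood vessels. They hold together through cadherin and tight junctions, read vascular endothelial growth factor and angiopoietin through receptor kinases, and divide into arterial, venous and capillary types partly through Notch signalling. SOX17 is an SRY-box factor of the SoxF group that acts in endoderm and in arterial endothelium. ERG is an ETS-family factor that endothelial cells keep on throughout life and that binds near many junction and Notch genes. Fibroblasts of the heart instead make collagen, proteoglycans and growth factors of the matrix, and are known by Pdgfra, Tcf21 and Dcn.

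The sequences just before the start sites of 5 genes that rose are shown because these genes had under 4 CPM in every control library and are used as markers of endothelium or of arteries. Gja5 and Gja4 encode connexins of arterial endothelium, Dll4 the arterial Notch ligand, Emcn the sialomucin endomucin and Robo4 a guidance receptor of endothelium. Sequences are RefSeq windows of GRCm38.p6, 5′ to 3′ on the strand of the gene. They end just before the RefSeq start, or 11 bases before it for Emcn and 75 bases before it for Robo4. They lie at chr3:97032152-97032401 (plus), chr4:127314040-127314289 (minus), chr2:119325534-119325783 (plus), chr3:137340828-137341066 (plus) and chr9:37401722-37401896 (plus). The Gja5 window lies inside the span given for that gene below, which comes from another annotation with an earlier start. Capitals mark the letters GGAAG or CTTCC, a form of the core of ETS-family sites on either strand, and ACAAT or ATTGT, a form of the core of SOX-family sites. Other forms of these cores were not marked or counted.
Gja5: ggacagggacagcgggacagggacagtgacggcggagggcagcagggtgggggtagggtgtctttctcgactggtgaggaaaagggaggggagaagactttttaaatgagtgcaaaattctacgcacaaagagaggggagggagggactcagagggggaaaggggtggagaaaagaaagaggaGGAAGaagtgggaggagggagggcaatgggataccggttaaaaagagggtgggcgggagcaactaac
Gja4: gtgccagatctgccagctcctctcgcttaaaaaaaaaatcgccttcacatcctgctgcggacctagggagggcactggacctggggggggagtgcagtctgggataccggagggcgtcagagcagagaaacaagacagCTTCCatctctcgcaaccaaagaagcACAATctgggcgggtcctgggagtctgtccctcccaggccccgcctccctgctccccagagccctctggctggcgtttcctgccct
Dll4: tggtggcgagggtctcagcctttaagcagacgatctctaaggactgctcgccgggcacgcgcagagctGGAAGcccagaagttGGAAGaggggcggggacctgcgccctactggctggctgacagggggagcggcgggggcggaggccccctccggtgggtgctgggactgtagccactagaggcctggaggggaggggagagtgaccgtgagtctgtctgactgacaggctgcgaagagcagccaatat
Emcn: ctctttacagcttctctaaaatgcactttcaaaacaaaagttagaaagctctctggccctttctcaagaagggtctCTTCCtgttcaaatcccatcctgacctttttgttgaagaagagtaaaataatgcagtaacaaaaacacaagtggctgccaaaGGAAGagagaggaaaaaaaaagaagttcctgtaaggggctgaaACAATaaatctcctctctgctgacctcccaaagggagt
Robo4: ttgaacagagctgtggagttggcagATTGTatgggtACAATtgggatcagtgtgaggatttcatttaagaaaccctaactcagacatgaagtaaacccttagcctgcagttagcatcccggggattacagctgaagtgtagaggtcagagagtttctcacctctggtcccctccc
Emcn averaged 225 ± 2.18 CPM in SEG, against 0.242 ± 0.0490 CPM in control (log2 change 9.83 ± 0.30, adjusted p = 1.61e-15), and Dll4 averaged 102 ± 2.85 CPM in SEG, against 0.0666 ± 0.0755 CPM in control (log2 change 10.42 ± 0.42, adjusted p = 8.78e-14); the levels of the other 3 genes are given with their groups. The ETS letters occur once in Gja5 and Gja4, in 2 places in Dll4 and Emcn, and in none in the Robo4 window. The SOX letters occur once in Gja4 and Emcn and in 2 places in Robo4. A match is a description of the letters and not a bound site. Of 11166 tested genes with a full window of 250 bases, 67.9% held the ETS letters, 18.3% the SOX letters and 12% both. Among genes that rose more than 4-fold the shares were 64.6%, 22.3% and 14.7%, over 551 windows, and among genes that fell more than 4-fold 64.6%, 19.2% and 10.7%, over 328 windows.

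Sox17 (a protein-coding gene, ENSMUSG00000025902, at mm10 chr1:4490931-4497354 on the minus strand) had 1016, 955 and 1054 CPM in SEG, against 0 counts in each control library. Erg (a protein-coding gene, ENSMUSG00000040732, at mm10 chr16:95359169-95586593 on the minus strand) had 1281, 1269 and 1254 CPM in SEG, against 0, 0.0991 and 0 CPM in control. Both transcripts were thus abundant in every SEG library and at or near 0 in control. A gene's own transcript and one from an added copy cannot be told apart in these counts.

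SEG and control differed at many genes. Of 14804 tested genes, 2958 rose (20.0%) and 2988 fell (20.2%), and the libraries of the 2 groups did not overlap in CPM at 9590 genes (64.8%). The shares of 20.0% and 20.2% stand beside every count below of list members that rose or fell in this fit. Some genes are in several lists, among them Dll4, Cxcr4, Mcam, Notch3 and Pdgfrb, so the counts of different lists are not independent. The median log2 change was 0.92 among genes that rose, −0.86 among genes that fell and 0.01 over all tested genes. Rises reached further than falls: 772 genes rose and 454 fell more than 4-fold, 313 rose and 44 fell more than 16-fold, and 132 rose and 7 fell more than 64-fold. For the 9525 tested genes that reached 10 CPM in either group, the counts were 289 and 185 beyond 4-fold, 105 and 11 beyond 16-fold, and 54 and 0 beyond 64-fold. In whole cultures, fewer cells of a type and less RNA per cell cannot be told apart, which holds for every change below. Fitting only the 12 day 3 libraries, which do not share their spread with day 7, gave 4315 genes that rose and 4268 that fell, of 13964 tested. These larger counts, and not 20.0% and 20.2%, are the background of every list count below given for day 3 libraries only. Leaving out replicate 1 of SEG and of Sox17 at day 7, the outlying libraries, gave 4365 and 4240.

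**Figure D1:**
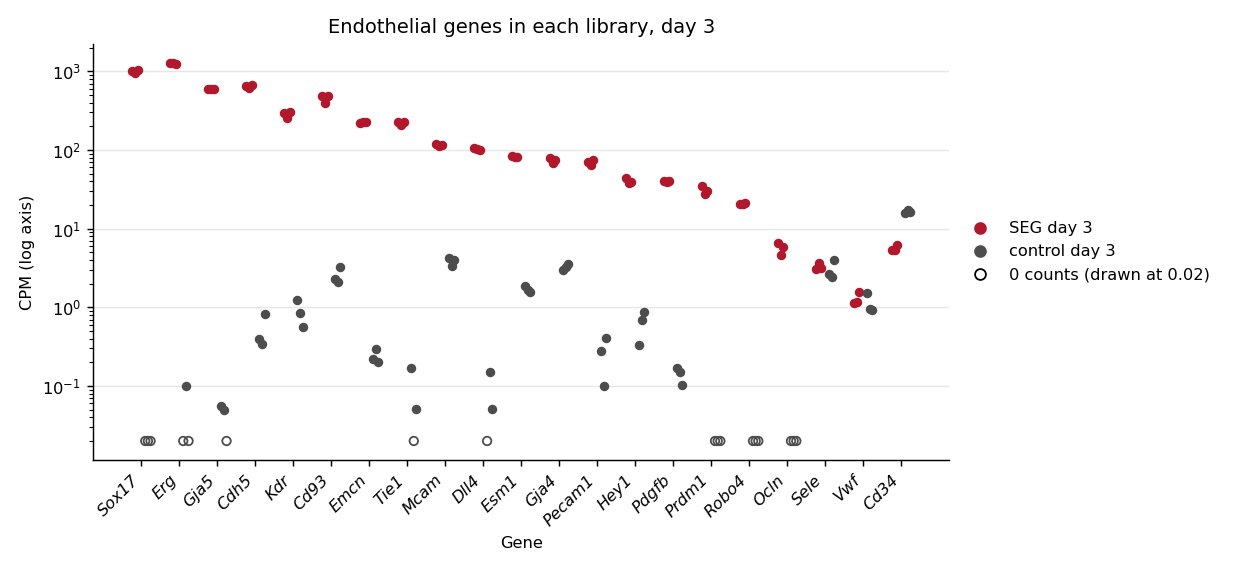
CPM (log axis) of 21 endothelial and factor genes in each of the 3 SEG libraries, left, and the 3 control libraries, right, at day 3. Points are libraries, and open circles are libraries with 0 counts, drawn at the bottom of the axis; for most genes the SEG points sit together far above the control points, while Sele and Vwf overlap and Cd34 is lower in SEG.

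The genes of endothelial cell junctions rose. Of 18 tested members, 12 rose and 2 fell, against 20.0% and 20.2% of all genes, and the median log2 change was 2.09. That median is 2.02 when a gene with 0 control counts enters at its lower bound. Ocln, the tight junction protein occludin, had 6.596, 4.56 and 5.91 CPM in SEG, against 0 counts in each control library, at least 109-fold higher (adjusted p = 1.64e-09). F11r, the junctional adhesion molecule JAM-A, had 72.6, 70.8 and 73.0 CPM in SEG, against 4.24, 4.46 and 3.38 CPM in control (log2 change 4.16 ± 0.20, adjusted p = 1.68e-12). The SEG libraries of both genes lay far above all control libraries and close to each other. Esam, an adhesion molecule of endothelial junctions, had 15.03, 11.8 and 12.6 CPM in SEG, against 0.112, 0.248 and 0.102 CPM in control (log2 change 6.35 ± 0.31, adjusted p = 2.08e-12). Clec14a, a lectin of endothelial surfaces, averaged 7.68 ± 1.47 CPM in SEG, against 0.367 ± 0.0718 CPM in control (log2 change 4.37 ± 0.31, adjusted p = 4.76e-10). Neither gene had any overlap between the groups.

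Other members rose less. Tjp1, or ZO-1, averaged 219 ± 23.7 CPM in SEG, against 76.7 ± 3.17 CPM in control (log2 change 1.51 ± 0.40). Afdn, or afadin, averaged 119.6 ± 8.09 CPM in SEG, against 54.1 ± 2.71 CPM in control (1.15 ± 0.22). Ptprb, the phosphatase VE-PTP that acts on VE-cadherin and TIE2, averaged 333 ± 30.2 CPM in SEG, against 123 ± 6.15 CPM in control (1.44 ± 0.32). Cldn5, the main claudin of endothelium, was at the limit of detection, with 0.153, 0.264 and 0.486 CPM in SEG, against 0 counts in each control library, and its call was lost without replicate 3 of SEG and in DESeq2. Jam2, another junctional adhesion molecule, had 64.02, 65.8 and 72.0 CPM in SEG, against 173, 175 and 179 CPM in control and fell (log2 change −1.38 ± 0.16, adjusted p = 4.54e-07). Jam3 did not pass, with 41.5 ± 2.54 CPM in SEG, against 39.7 ± 2.05 CPM in control (log2 change 0.06 ± 0.08, adjusted p = 0.598).

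Surface mucins and adhesion receptors split into a group that rose and one that did not. Of 16 tested members, 8 rose and 3 fell. Cd93, a C-type lectin receptor of endothelium, had 485, 392 and 484 CPM in SEG, against 2.29, 2.13 and 3.27 CPM in control (log2 change 7.46 ± 0.29, adjusted p = 4.73e-14). Mcam, the adhesion molecule CD146, had 121, 114 and 115 CPM in SEG, against 4.24, 3.32 and 3.94 CPM in control (log2 change 4.93 ± 0.14, adjusted p = 1.06e-15). Icam2, a ligand for leukocyte integrins kept on in resting endothelium, had 37.8, 42.2 and 38.2 CPM in SEG, against 0.223, 0.545 and 0.614 CPM in control (log2 change 6.38 ± 0.38, adjusted p = 2.80e-11). In each of these 3 genes every SEG library exceeded every control library more than 10-fold. Podxl, the sialomucin podocalyxin of the vessel lumen, averaged 10.9 ± 1.59 CPM in SEG, against 0.340 ± 0.259 CPM in control (log2 change 5.01 ± 0.35), Thsd1, a focal adhesion protein of brain vessels, 56.9 ± 4.22 CPM in SEG, against 1.64 ± 0.297 CPM in control (5.11 ± 0.16), and Ecscr, an endothelial sialomucin-like receptor, 199 ± 11.6 CPM in SEG, against 20.2 ± 0.544 CPM in control (3.30 ± 0.25). Vcam1, a leukocyte adhesion receptor that fibroblasts also make, had 2182.2, 2256 and 2114 CPM in SEG, against 557, 540.0 and 566 CPM in control (log2 change 1.98 ± 0.12, adjusted p = 3.60e-11).

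The adhesion receptors that inflamed endothelium shows did not rise together. Sele, E-selectin, had 3.07, 3.70 and 3.14 CPM in SEG, against 2.68, 2.43 and 3.94 CPM in control. Selp, P-selectin, had 3.02, 3.02 and 3.63 CPM in SEG, against 2.73, 4.61 and 4.04 CPM in control, with overlapping groups in both. Neither passed (log2 change 0.13 ± 0.26, adjusted p = 0.746, and −0.24 ± 0.35, adjusted p = 0.645). Icam1 fell, with 42.1, 51.3 and 46.8 CPM in SEG, against 80.2, 91.2 and 89.5 CPM in control (log2 change −0.89 ± 0.08, adjusted p = 1.57e-08). Eng, the co-receptor endoglin, which activated fibroblasts also carry, fell as well, with 343, 366 and 344 CPM in SEG, against 588, 605 and 627 CPM in control (log2 change −0.79 ± 0.11, adjusted p = 5.69e-06).

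Receptors and ligands of vascular growth factors moved in both directions. Of 10 VEGF genes, 5 rose and 5 fell. Nrp1, the co-receptor neuropilin-1, had 302, 268 and 328 CPM in SEG, against 63.9, 65.4 and 64.8 CPM in control (log2 change 2.21 ± 0.21, adjusted p = 3.97e-08). Nrp2, its relative in veins and lymphatics, had 30.4, 27.2 and 31.3 CPM in SEG, against 204, 201 and 194 CPM in control and fell (log2 change −2.75 ± 0.23, adjusted p = 6.22e-09). The paralogs thus moved in opposite directions, with no overlap between the groups in either. Pgf, placental growth factor, a ligand of FLT1, had 58.1, 61.1 and 58.4 CPM in SEG, against 3.40, 3.07 and 3.43 CPM in control (log2 change 4.16 ± 0.30, adjusted p = 6.57e-10). Vegfd, a ligand of FLT4 made by fibroblasts, had 6.95, 8.79 and 9.68 CPM in SEG, against 131, 137 and 129.8 CPM in control and fell (log2 change −3.96 ± 0.12, adjusted p = 1.21e-15). Flt4 itself had 75.2, 65.6 and 74.9 CPM in SEG, against 21.8, 22.5 and 21.9 CPM in control (log2 change 1.70 ± 0.25, adjusted p = 1.17e-05). Flt1, which traps VEGF-A and binds placental growth factor, averaged 25.9 ± 2.73 CPM in SEG, against 11.5 ± 1.55 CPM in control (1.17 ± 0.24), Vegfb 34.1 ± 1.76 CPM in SEG, against 76.9 ± 3.53 CPM in control (−1.17 ± 0.16) and Vegfc 24.8 ± 1.72 CPM in SEG, against 33.5 ± 1.70 CPM in control (−0.43 ± 0.09).

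Of 8 tested genes of Tie receptors, angiopoietins and related proteins, 3 rose and 5 fell. The receptor gene Tie1 had 230, 205 and 229 CPM in SEG, against 0.167, 0 and 0.0512 CPM in control (log2 change 11.54 ± 0.39, adjusted p = 7.81e-15). Angpt2, the TIE2 ligand that endothelial cells release, had 10.8, 11.7 and 14.1 CPM in SEG, against 2.18, 1.63 and 2.81 CPM in control (log2 change 2.47 ± 0.18, adjusted p = 1.08e-09). Angpt1, the ligand from supporting cells, had 2.86, 2.26 and 2.43 CPM in SEG, against 6.97, 6.84 and 5.37 CPM in control (log2 change −1.35 ± 0.26, adjusted p = 2.38e-04). Svep1, a large matrix protein that serves lymphatic vessels, fell to 54.9 ± 7.78 CPM in SEG, against 261 ± 9.71 CPM in control (−2.25 ± 0.27), and Angptl2, an angiopoietin-like protein of fibroblasts, to 77.6 ± 3.50 CPM in SEG, against 262 ± 7.87 CPM in control (−1.76 ± 0.08).

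Of 14 Notch receptors and ligands, 7 rose and 3 fell, and of 8 Hey and Hes genes 4 rose and 1 fell. Jag1, a ligand of arterial and smooth muscle cells, had 485, 491 and 475 CPM in SEG, against 48.7, 48.8 and 50.8 CPM in control (log2 change 3.29 ± 0.24, adjusted p = 8.95e-10). Notch1, the receptor that arterial identity needs, had 210.0, 188 and 216 CPM in SEG, against 51.1, 51.5 and 48.4 CPM in control (log2 change 2.02 ± 0.23, adjusted p = 3.83e-07). Notch4, the receptor most restricted to endothelium, had 339, 317 and 338 CPM in SEG, against 138, 129 and 139 CPM in control (log2 change 1.29 ± 0.08, adjusted p = 3.70e-11). All 3 had more than 100 CPM in every SEG library. Notch3, the receptor of mural cells, averaged 129 ± 14.8 CPM in SEG, against 32.6 ± 2.61 CPM in control (1.98 ± 0.35). Notch2 was lower, at 99.1 ± 13.7 CPM in SEG, against 184 ± 4.61 CPM in control (−0.90 ± 0.30), a call lost without replicate 1 or 2 of SEG or replicate 2 of control. Among the targets, Heyl had 120.1, 102 and 115 CPM in SEG, against 13.3, 16.2 and 14.9 CPM in control (log2 change 2.92 ± 0.12, adjusted p = 1.71e-13). Hey2 had 5.16, 5.47 and 6.28 CPM in SEG, against 0.112, 0.446 and 0.205 CPM in control (log2 change 4.42 ± 0.31, adjusted p = 3.73e-10). Nrarp, a feedback inhibitor of Notch, had 8.28, 6.34 and 6.06 CPM in SEG and 3 counts over the control libraries, a ratio of 129.8 (95% counting interval 44.2 to 632). Hes1, a target used by most cell types, fell to 36.0 ± 2.20 CPM in SEG, against 55.7 ± 1.27 CPM in control (−0.63 ± 0.16).

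Genes used as arterial markers rose more often than venous and lymphatic ones, without a test of that difference. Of 23 arterial genes, 15 rose and 4 fell, with a median log2 change of 1.43; of 16 venous and lymphatic genes, 7 rose and 6 fell, with a median of 0.26. Gja4 (a protein-coding gene, ENSMUSG00000050234, at mm10 chr4:127311421-127314039 on the minus strand) had 80.1, 68.3 and 73.8 CPM in SEG, against 2.96, 3.22 and 3.58 CPM in control (log2 change 4.50 ± 0.24, adjusted p = 8.30e-12). Gja5, also called connexin 40 (a protein-coding gene, ENSMUSG00000057123, at mm10 chr3:96904693-97077416 on the plus strand), had 597, 592 and 602 CPM in SEG, against 0.0558, 0.0495 and 0 CPM in control, a ratio of 17208 (95% counting interval 4763 to 142097). Gja1, the connexin of most fibroblasts and muscle cells, rose less, to 66.2 ± 5.18 CPM in SEG, against 39.5 ± 2.56 CPM in control (0.74 ± 0.22). Cxcr4, a chemokine receptor of growing arteries, had 25.1, 19.3 and 21.1 CPM in SEG, against 0.223, 0.149 and 0.358 CPM in control (log2 change 6.46 ± 0.41, adjusted p = 8.62e-11). Its ligand Cxcl12 fell, with 63.97, 69.3 and 69.2 CPM in SEG, against 276, 269 and 265 CPM in control (log2 change −2.0 ± 0.10, adjusted p = 3.81e-12). Sema3g, a semaphorin of arterial endothelium, had 35.8, 33.3 and 32.9 CPM in SEG, against 0.112, 0.248 and 0.256 CPM in control (log2 change 7.32 ± 0.27, adjusted p = 2.19e-14). On the venous and lymphatic side, Nr2f2, the factor of vein identity, rose to 57.5 ± 5.62 CPM in SEG, against 25.8 ± 1.18 CPM in control (1.16 ± 0.12), while Pdpn, podoplanin of lymphatic vessels and fibroblasts, fell to 153 ± 5.96 CPM in SEG, against 377 ± 5.31 CPM in control (−1.31 ± 0.10). That list also holds Emcn, Vcam1 and Flt4, given above, which rose more than Nr2f2 (Emcn by a log2 change of 9.83). Nrp2 and Lrg1, in the list too, fell further than Pdpn (Lrg1 −6.22 ± 0.39).

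Genes of tip cells, the leading cells of a sprout, rose at 11 of 17 members and fell at 3. Esm1, the secreted proteoglycan endocan, had 84.7, 80.3 and 82.6 CPM in SEG, against 1.84, 1.68 and 1.59 CPM in control (log2 change 5.60 ± 0.23, adjusted p = 1.58e-13). Pdgfb, with which sprouts recruit pericytes, had 40.1, 39.4 and 40.9 CPM in SEG, against 0.167, 0.149 and 0.102 CPM in control (log2 change 8.13 ± 0.25, adjusted p = 2.58e-15). Plaur, the urokinase receptor, had 84.9, 93.1 and 84.1 CPM in SEG, against 14.6, 12.4 and 14.0 CPM in control (log2 change 2.67 ± 0.13, adjusted p = 1.15e-12). Control levels of Esm1 and Pdgfb were under 2 CPM, and that of Plaur was higher. Apln, the peptide apelin, had 3.68, 4.90 and 3.93 CPM in SEG, against 8.03, 7.13 and 5.94 CPM in control and fell (log2 change −0.75 ± 0.18, adjusted p = 0.00194). Adm, adrenomedullin, fell to 89.3 ± 15.9 CPM in SEG, against 238 ± 5.52 CPM in control (−1.42 ± 0.13).

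Guidance molecules rose more often than they fell. Of 17 ephrins and Eph receptors, 9 rose and 3 fell, or 5 fell in the fit of day 3 libraries only. Efna1, a ligand of endothelium, had 25.7, 27.0 and 25.6 CPM in SEG, against 1.56, 2.63 and 2.20 CPM in control (log2 change 3.61 ± 0.24, adjusted p = 2.25e-10). Efnb1 had 148, 147 and 142 CPM in SEG, against 34.6, 35.8 and 36.9 CPM in control (log2 change 2.02 ± 0.08, adjusted p = 1.33e-13), while the receptor Ephb2 fell, with 9.31, 9.20 and 9.61 CPM in SEG, against 37.8, 42.3 and 47.5 CPM in control (log2 change −2.18 ± 0.14, adjusted p = 7.01e-11). Of 28 semaphorins and plexins, 12 rose and 9 fell. Plxnd1, the semaphorin receptor of vessels, averaged 251 ± 3.85 CPM in SEG, against 78.1 ± 2.36 CPM in control (1.68 ± 0.16). Sema5a fell to 4.82 ± 0.861 CPM in SEG, against 23.96 ± 1.30 CPM in control (−2.31 ± 0.33). Of 16 Robo, Slit, Unc5 and netrin genes, 7 rose and 5 fell. Robo4 (a protein-coding gene, ENSMUSG00000032125, at mm10 chr9:37401897-37415115 on the plus strand) had 20.4, 20.7 and 21.2 CPM in SEG, against 0 counts in each control library, at least 399-fold higher. Robo2, better known from axons, had 49.4, 41.2 and 53.7 CPM in SEG, against 1.56, 1.34 and 1.43 CPM in control (log2 change 5.06 ± 0.40, adjusted p = 2.27e-09). Slit2, a ligand of Robo receptors, had 388, 380.3 and 440.2 CPM in SEG, against 112, 109 and 109.9 CPM in control (log2 change 1.87 ± 0.33, adjusted p = 1.16e-04).

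Genes of vascular tone and clotting moved in both directions, with 6 of 22 tone genes higher and 8 lower, and 7 of 22 clotting genes higher and 6 lower. Edn1, the vasoconstrictor endothelin-1 of endothelium, had 299, 329 and 319 CPM in SEG, against 8.87, 6.99 and 7.06 CPM in control (log2 change 5.37 ± 0.16, adjusted p = 1.61e-15). The prostaglandin synthases moved in opposite directions. Ptgs2, the inducible form, had 205, 212 and 217 CPM in SEG, against 10.9, 8.47 and 8.24 CPM in control (log2 change 4.52 ± 0.29, adjusted p = 9.33e-11). Ptgs1, the constitutive form, had 11.9, 14.5 and 14.1 CPM in SEG, against 111, 109 and 107 CPM in control (log2 change −3.01 ± 0.09, adjusted p = 1.59e-15). Every SEG library was above every control library for Ptgs2 and below for Ptgs1. Ptgir, the prostacyclin receptor, fell to 3.66 ± 0.641 CPM in SEG, against 33.1 ± 2.64 CPM in control (−3.17 ± 0.21), and Ace, the angiotensin converting enzyme, to 527 ± 49.3 CPM in SEG, against 1471 ± 144 CPM in control (−1.48 ± 0.10). Thbd, thrombomodulin, with which endothelium holds back clotting, had 372, 336 and 378 CPM in SEG, against 40.6, 47.3 and 41.2 CPM in control (log2 change 3.07 ± 0.22, adjusted p = 4.17e-10). F3, tissue factor, which starts clotting and which fibroblasts carry, had 14.98, 22.4 and 16.4 CPM in SEG, against 92.8, 95.3 and 98.0 CPM in control (log2 change −2.41 ± 0.16, adjusted p = 2.72e-10).

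Among capillary and metabolic genes, 6 of 17 rose and 5 fell. Cav1, the coat protein of caveolae, had 998, 1119.7 and 975 CPM in SEG, against 73.6, 76.3 and 84.2 CPM in control (log2 change 3.72 ± 0.13, adjusted p = 1.22e-14). Fabp4, a fatty acid binding protein of capillaries and adipocytes, had 401, 366 and 384 CPM in SEG, against 38.0, 38.4 and 36.7 CPM in control (log2 change 3.35 ± 0.20, adjusted p = 2.44e-11). Cavin1, the partner of caveolin in the coat, had 651, 677 and 644 CPM in SEG, against 671, 666 and 682 CPM in control and did not pass (log2 change −0.03 ± 0.09, adjusted p = 0.822). Lpl, the lipase that stromal cells hand to capillaries, fell, with 108, 115 and 117 CPM in SEG, against 611, 681 and 632 CPM in control (log2 change −2.50 ± 0.12, adjusted p = 7.53e-13).

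Transcription factors of endothelium rose at 16 of 27 tested members and fell at 5. The 16 include Erg itself, whose transcript may come from an added copy. Etv2, which starts the vascular lineage in embryos, had 0 counts in all 6 libraries. Prdm1, the repressor BLIMP1, had 35.3, 27.4 and 30.5 CPM in SEG, against 0 counts in each control library, at least 597-fold higher. Hhex, a homeobox factor of early endothelium and liver, had 14.7, 14.3 and 14.2 CPM in SEG, against 0.223, 0.0991 and 0.256 CPM in control (log2 change 6.20 ± 0.24, adjusted p = 3.70e-14). Lmo2, an adaptor of blood and vessel factors, had 37.6, 34.3 and 39.6 CPM in SEG, against 2.79, 4.90 and 3.53 CPM in control (log2 change 3.30 ± 0.15, adjusted p = 7.69e-13). Mecom, a zinc finger factor of arterial cells, had 239.8, 199 and 241 CPM in SEG, against 33.6, 36.4 and 34.1 CPM in control (log2 change 2.71 ± 0.26, adjusted p = 3.49e-08). These 4 factors had no overlap between groups. Smaller rises were those of Elk3, an ETS repressor (206 ± 13.9 CPM in SEG, against 91.3 ± 1.70 CPM in control, 1.17 ± 0.09), Foxo1 (59.9 ± 6.56 CPM in SEG, against 25.2 ± 1.49 CPM in control, 1.25 ± 0.21), Tcf4 (359 ± 48.4 CPM in SEG, against 151 ± 4.801 CPM in control, 1.25 ± 0.16) and Epas1, the hypoxia factor HIF-2α (629 ± 50.7 CPM in SEG, against 357 ± 14.5 CPM in control, 0.82 ± 0.21). Sox18, the other SoxF factor of vessels, had 1.99, 2.41 and 1.05 CPM in SEG and 1 count over the control libraries, a ratio of 104 (95% counting interval 18.3 to 4127). Klf4, a flow-responsive factor, fell to 57.5 ± 3.89 CPM in SEG, against 135 ± 1.43 CPM in control (−1.23 ± 0.19). Klf2, its close relative, had 49.0 ± 3.09 CPM in SEG, against 49.0 ± 4.72 CPM in control and did not pass (−0.0 ± 0.14). Ets1 did not pass either, at 122 ± 7.03 CPM in SEG, against 118 ± 2.66 CPM in control (0.04 ± 0.17).

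The largest rises held genes that are not marker genes of vessels. Magix, a PDZ domain protein, had 88.0, 86.8 and 87.8 CPM in SEG, against 0 counts in each control library, at least 1682-fold higher. Sphkap, a kinase anchoring protein known from neurons and heart, had 62.2, 53.2 and 65.4 CPM in SEG, against 0 counts in each control library, at least 1158-fold higher. Lpo, lactoperoxidase of secreted fluids, had 25.7, 26.9 and 26.3 CPM in SEG, against 0 counts in each control library, at least 505-fold higher. All 3 had 0 counts in every control library. In all, 18 genes had 0 counts in all 3 control libraries and at least 3 CPM in SEG, and 0 genes the reverse. They include Nyap2 (10.98 ± 3.12 CPM in SEG), the glutamate receptor subunit Grin2a (9.56 ± 1.45), the Wnt-responsive factor Sp5 (8.91 ± 0.418) and the serpin Serpinb12 (8.59 ± 1.73). S100g, the calcium-binding protein calbindin-D9k of gut and uterus, had 67.7, 48.5 and 63.6 CPM in SEG and 2 counts over the control libraries, a ratio of 1706 (95% counting interval 472 to 14091). Sprr2b, one of a cluster of near-identical cornified envelope genes among which reads may be split, had 74.9, 115 and 78.7 CPM in SEG, against 0, 0.149 and 0.0512 CPM in control (log2 change 10.24 ± 0.45, adjusted p = 2.44e-12). In Sox17 cells at day 3, Magix averaged 59.3 CPM, Sphkap 78.2 and Nyap2 7.58, and none passed between SEG and Sox17 cells. Sprr2b averaged 177 CPM there and was lower in SEG. Lpo, Grin2a, Sp5, Serpinb12 and S100g were higher in SEG than in Sox17 cells.

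The 10 largest gains in mean CPM included Erg and Vcam1, given above. Thbs1, thrombospondin-1, had 5790.0, 6227 and 6120.4 CPM in SEG, against 2621, 2297 and 2348 CPM in control (log2 change 1.32 ± 0.32, adjusted p = 0.00255). Txndc5, a disulfide isomerase of the endoplasmic reticulum, had 3229, 3024 and 3248 CPM in SEG, against 588, 603 and 618 CPM in control (log2 change 2.39 ± 0.06, adjusted p = 1.98e-16). Igfbp3, an IGF carrier, had 2306, 2505 and 2407 CPM in SEG, against 56.0, 52.9 and 53.01 CPM in control (log2 change 5.48 ± 0.13, adjusted p = 8.20e-17). Each of these gained more than 1000 CPM. Ltbp4, a binder of latent TGF-beta, gained as well (1606 ± 70.6 CPM in SEG, against 303 ± 13.8 CPM in control, 2.40 ± 0.13), as did Vcan, the proteoglycan versican (1616 ± 289.8 CPM in SEG, against 498 ± 33.8 CPM in control, 1.70 ± 0.34), Actg1, cytoplasmic gamma-actin (3738 ± 128 CPM in SEG, against 2173 ± 68.8 CPM in control, 0.78 ± 0.09), and Sparc (9772 ± 211 CPM in SEG, against 8147 ± 228 CPM in control, 0.26 ± 0.09). The call of Sparc was lost without replicate 2 of SEG or replicate 1 or 2 of control.

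Per kilobase of exon, which allows levels of different genes to be compared, Gja5 stood at 104 CPM in SEG, Cdh5 at 154, Emcn at 41.6, Tie1 at 45.02, Dll4 at 26.5, Pecam1 at 11.2 and Robo4 at 3.91. On the same scale Bgn stood at 611, Col1a1 at 1314, Col3a1 at 119.7 and Pdgfra at 11.2 in SEG. The Col1a1 and Bgn values lay above all 7 endothelial ones, and Col3a1 lay between Cdh5 and Gja5. In control, Pdgfra stood at 63.7 CPM per kilobase and Col3a1 at 461.

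**Figure D2:**
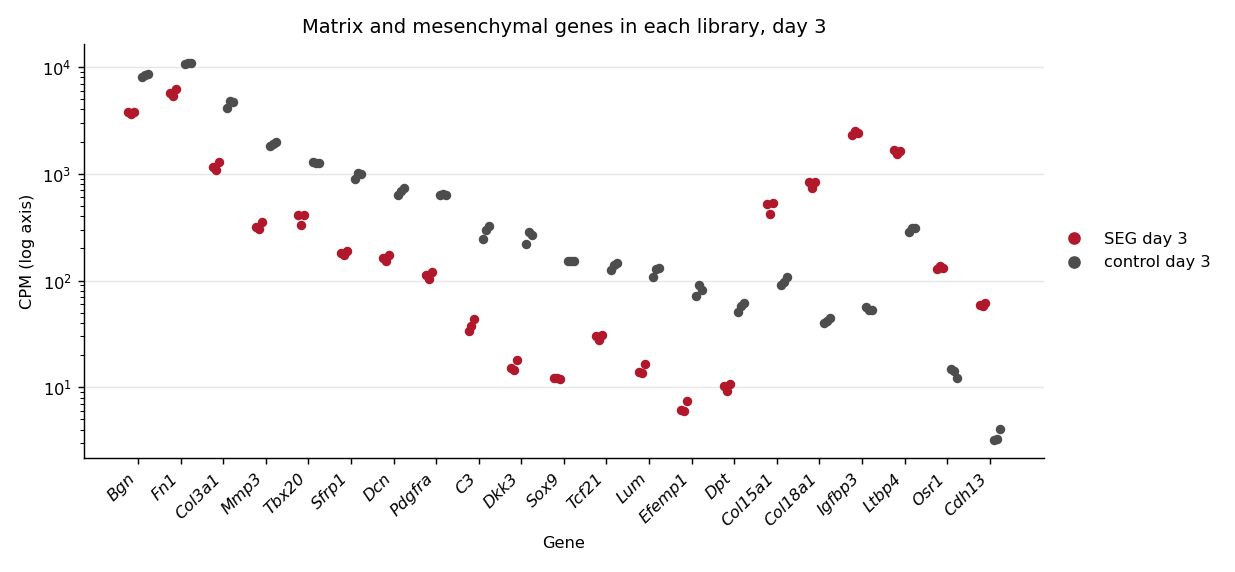
CPM (log axis) of 21 fibroblast and matrix genes in each SEG library, left, and each control library, right, at day 3; points are libraries. The first 15 genes lie lower in SEG in all 3 libraries, with levels still measurable, and the last 6, Col15a1 to Cdh13, lie higher.

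Fibroblast genes fell. Of 29 tested members, 21 fell and 4 rose, with a median log2 change of −1.22 against 0.01 over all tested genes. Dpt, the matrix protein dermatopontin, had 10.3, 9.13 and 10.8 CPM in SEG, against 50.2, 57.7 and 61.1 CPM in control (log2 change −2.48 ± 0.15, adjusted p = 2.87e-11). Islr, a stromal surface protein also called meflin, had 8.44, 8.86 and 10.95 CPM in SEG, against 83.9, 90.2 and 100.96 CPM in control (log2 change −3.28 ± 0.11, adjusted p = 4.43e-15). Dpep1, a membrane dipeptidase of heart fibroblasts, had 158, 169.9 and 165 CPM in SEG, against 781, 876 and 885 CPM in control (log2 change −2.37 ± 0.17, adjusted p = 6.71e-10). Gsn, gelsolin, which severs actin and is abundant in resting fibroblasts, had 369, 369.5 and 376 CPM in SEG, against 1643, 1893 and 2047 CPM in control (log2 change −2.32 ± 0.14, adjusted p = 3.56e-11). The groups did not overlap in any of these 4 genes. Ly6a, one of several near-identical Ly6 genes, fell to 40.5 ± 4.88 CPM in SEG, against 236 ± 14.1 CPM in control (−2.54 ± 0.21), and its neighbour Ly6c1 to 1.58 ± 0.357 CPM in SEG, against 24.7 ± 1.65 CPM in control (−3.94 ± 0.22); reads may be split between such copies. Members that rose were Vcam1, Meox1 (8.32 ± 0.234 CPM in SEG, against 1.29 ± 0.269 CPM in control, 2.69 ± 0.29), Mfap5 (210.0 ± 11.8 CPM in SEG, against 114 ± 8.66 CPM in control, 0.89 ± 0.19) and Fap, the activation marker of fibroblasts (9.12 ± 1.04 CPM in SEG, against 5.51 ± 1.03 CPM in control, 0.73 ± 0.17).

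Transcription factors of heart mesenchyme followed no single direction, with 8 of 24 lower and 6 higher. Tcf21, the factor of epicardium-derived fibroblasts, had 30.0, 27.8 and 31.1 CPM in SEG, against 126, 141 and 147 CPM in control (log2 change −2.22 ± 0.09, adjusted p = 1.64e-13). Tbx20 had 413, 333 and 415 CPM in SEG, against 1301, 1260.1 and 1267 CPM in control (log2 change −1.72 ± 0.29, adjusted p = 7.61e-05). Sox9, the factor of cartilage and of valve and scar fibroblasts, had 12.1, 12.3 and 11.9999 CPM in SEG, against 151, 153 and 153 CPM in control (log2 change −3.65 ± 0.15, adjusted p = 9.00e-14). Gata4, shared by several heart lineages, did not pass, at 200.2 ± 7.61 CPM in SEG, against 153 ± 3.08 CPM in control, and neither did Gata6 (91.2 ± 2.11 CPM in SEG, against 74.9 ± 0.536 CPM in control) or Mef2c (15.2 ± 2.004 CPM in SEG, against 14.3 ± 1.23 CPM in control). Osr1, a mesenchymal zinc finger factor, rose, with 129, 137 and 132 CPM in SEG, against 14.8, 14.1 and 12.2 CPM in control (log2 change 3.28 ± 0.09, adjusted p = 6.09e-16). Among transition factors, Snai1 fell to 48.9 ± 0.791 CPM in SEG, against 133 ± 6.30 CPM in control (−1.44 ± 0.07) and Snai2 to 12.04 ± 0.285 CPM in SEG, against 30.8 ± 2.22 CPM in control (−1.35 ± 0.13), while Twist1 and Zeb2 moved little: Twist1 rose to 49.9 ± 3.02 CPM in SEG, against 39.1 ± 1.72 CPM in control (0.35 ± 0.08), and Zeb2 did not pass at 107 ± 11.1 CPM in SEG, against 128 ± 6.46 CPM in control (−0.26 ± 0.36). N-cadherin, Cdh2, did not pass (584 ± 16.7 CPM in SEG, against 712 ± 15.1 CPM in control, −0.29 ± 0.18), and the cadherins Cdh13 and Cdh6 rose, Cdh13 to 59.4 ± 1.49 CPM in SEG, against 3.53 ± 0.486 CPM in control (4.07 ± 0.17) and Cdh6 to 21.8 ± 1.07 CPM in SEG, against 0.451 ± 0.127 CPM in control (5.58 ± 0.34).

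Of 13 small leucine-rich proteoglycans, which bind collagen fibrils, 11 fell and 1, Podn, rose (median log2 change −1.85). Prelp had 109.7, 104 and 117 CPM in SEG, against 854, 949 and 993 CPM in control (log2 change −3.08 ± 0.13, adjusted p = 1.30e-13). Lum, lumican, had 13.8, 13.5 and 16.5 CPM in SEG, against 109, 128 and 130.2 CPM in control (log2 change −3.07 ± 0.15, adjusted p = 2.67e-12). Bgn, biglycan, had 3759.8, 3639 and 3779 CPM in SEG, against 8059.5, 8414 and 8612 CPM in control (log2 change −1.17 ± 0.07, adjusted p = 7.04e-11). Of 38 collagen genes, 18 fell and 3 rose (median −0.61). The 3 beaded-filament chains fell together: Col6a1 to 194 ± 7.45 CPM in SEG, against 714 ± 52.1 CPM in control (−1.88 ± 0.07), Col6a2 to 99.2 ± 4.52 CPM in SEG, against 393 ± 36.9 CPM in control (−1.99 ± 0.07) and Col6a3 to 55.6 ± 11.1 CPM in SEG, against 298 ± 31.4 CPM in control (−2.42 ± 0.24). The main fibril chains lost less, Col1a1 with 8889, 8102 and 8876 CPM in SEG, against 12102, 12953 and 13231 CPM in control (log2 change −0.57 ± 0.11, adjusted p = 3.18e-04) and Col1a2 with 6207, 6009 and 6242 CPM in SEG, against 8672, 9054 and 9455 CPM in control (log2 change −0.56 ± 0.13, adjusted p = 0.00163). The rises were those of Col15a1, Col18a1 and Col27a1. Col18a1, a basement membrane collagen of vessels from which endostatin is cut, had 829, 732 and 832 CPM in SEG, against 40.2, 42.1 and 44.2 CPM in control (log2 change 4.24 ± 0.09, adjusted p = 2.32e-17). Col15a1, its closest relative, had 521, 424 and 529 CPM in SEG, against 90.2, 96.3 and 107 CPM in control (log2 change 2.33 ± 0.17, adjusted p = 9.93e-10). Col27a1 averaged 11.7 ± 0.612 CPM in SEG, against 2.12 ± 0.566 CPM in control (2.46 ± 0.22). Col4a1, the common basement membrane chain, did not pass at 7267 ± 209 CPM in SEG, against 9469 ± 468 CPM in control (−0.38 ± 0.16), whereas the rarer chains fell, Col4a3 to 0.450 ± 0.102 CPM in SEG, against 6.22 ± 0.564 CPM in control (−3.77 ± 0.39) and Col4a4 to 1.602 ± 0.207 CPM in SEG, against 15.96 ± 1.23 CPM in control (−3.32 ± 0.25).

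Enzymes that mature collagen fell at 10 of 23 members and rose at 2, or 4 in the fit of day 3 libraries only. Lox, lysyl oxidase, had 1807, 1553 and 1835 CPM in SEG, against 3601, 3488 and 3627 CPM in control (log2 change −1.04 ± 0.26, adjusted p = 0.00306). Pcolce, which helps cut procollagen, had 253, 275 and 255 CPM in SEG, against 932, 996 and 1009 CPM in control (log2 change −1.91 ± 0.20, adjusted p = 1.38e-07). Laminins, nidogens and perlecan changed less, with 3 of 16 higher and 2 lower, or 6 and 4 with day 3 libraries only. Lama4, the laminin chain of vessels, did not pass (1087 ± 34.3 CPM in SEG, against 907 ± 34.3 CPM in control, 0.26 ± 0.11). Lama3 rose to 10.7 ± 2.05 CPM in SEG, against 0.948 ± 0.209 CPM in control (3.49 ± 0.52).

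Of 36 matricellular and elastic fibre genes, 19 fell and 11 rose. Efemp1, or fibulin-3, had 6.19, 5.996 and 7.44 CPM in SEG, against 71.8, 90.2 and 81.4 CPM in control (log2 change −3.63 ± 0.12, adjusted p = 4.68e-15). Sparcl1, or hevin, had 3.27, 3.43 and 4.26 CPM in SEG, against 29.7, 36.4 and 30.3 CPM in control (log2 change −3.13 ± 0.19, adjusted p = 3.21e-11). Fbln5, which assembles elastic fibres, rose, with 945, 983 and 938 CPM in SEG, against 285, 289.5 and 279 CPM in control (log2 change 1.75 ± 0.07, adjusted p = 1.41e-13), as did Tnc, tenascin-C, with 700.5, 833 and 783 CPM in SEG, against 279, 221 and 239.8 CPM in control (log2 change 1.65 ± 0.22, adjusted p = 3.10e-06). Among the fibulins, then, Fbln1, Fbln2 and Efemp1 fell while Fbln5 rose (Fbln1 68.6 ± 1.45 CPM in SEG, against 159 ± 12.4 CPM in control, −1.22 ± 0.12; Fbln2 4607 ± 22.3 CPM in SEG, against 10707 ± 327 CPM in control, −1.22 ± 0.13). Fn1, fibronectin, fell, with 5758, 5322 and 6214 CPM in SEG, against 10645, 10945 and 10917 CPM in control (log2 change −0.91 ± 0.28, adjusted p = 0.0135), a call lost without replicate 2 of SEG.

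Metalloproteinases and their inhibitors fell at 9 of 21 members and rose at 4. Mmp3, stromelysin, had 314, 305 and 351 CPM in SEG, against 1832, 1906 and 1997 CPM in control (log2 change −2.56 ± 0.14, adjusted p = 7.22e-12). Timp2 had 655, 568 and 668 CPM in SEG, against 2078, 2175 and 2210.0 CPM in control (log2 change −1.77 ± 0.08, adjusted p = 5.25e-13). ADAMTS genes fell at 10 of 20 and rose at 5. Adamtsl2, a matrix protein that restrains TGF-beta, had 4.19, 4.19 and 4.56 CPM in SEG, against 78.7, 95.3 and 80.0 CPM in control (log2 change −4.29 ± 0.16, adjusted p = 3.65e-14). Adamts5, an aggrecan-cutting protease, fell to 102 ± 6.92 CPM in SEG, against 558 ± 26.2 CPM in control (−2.45 ± 0.15). Integrins leaned the other way, with 10 of 23 higher and 5 lower. Itga2, a collagen receptor chain, had 68.7, 58.6 and 65.9 CPM in SEG, against 6.08, 4.90 and 4.76 CPM in control (log2 change 3.62 ± 0.38, adjusted p = 1.38e-07). Itgb3, the partner of Itgav on sprouting vessels, had 125, 106 and 127 CPM in SEG, against 44.5, 46.6 and 43.8 CPM in control (log2 change 1.41 ± 0.07, adjusted p = 3.19e-12). Itgb5 fell to 785 ± 31.3 CPM in SEG, against 1683 ± 90.6 CPM in control (−1.10 ± 0.08).

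**Figure D3:**
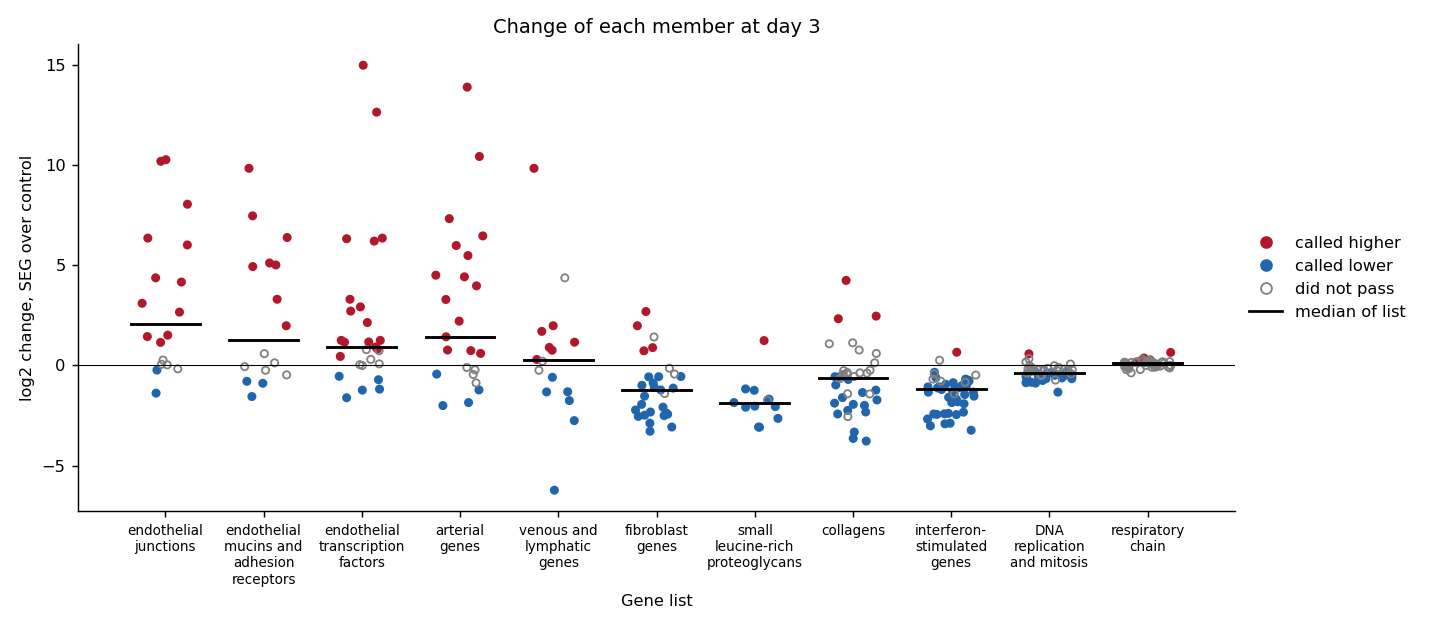
Log2 change of SEG over control at day 3 for every tested member of 11 gene lists. Each point is a gene, filled where it was called, and the black bar is the median of the list. Junction, mucin and arterial members spread mainly upward and fibroblast, proteoglycan and interferon members mainly downward. Points of genes with 0 to 3 control counts are fitted values that depend on the prior count and are no bound.

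Growth factor pathways moved member by member. In the PDGF family, 3 of 7 rose and 2 fell: the ligand genes Pdgfb and Pdgfd and the receptor-like Pdgfrl rose (Pdgfd 144 ± 5.20 CPM in SEG, against 23.5 ± 2.99 CPM in control, 2.62 ± 0.19), and the receptors Pdgfra and Pdgfrb fell (Pdgfrb 362 ± 29.7 CPM in SEG, against 1151 ± 34.7 CPM in control, −1.67 ± 0.10). Of 28 FGF genes, 13 rose and 6 fell. Fgf7, a growth factor that stroma gives to epithelium, had 2.20, 2.11 and 2.17 CPM in SEG, against 28.4, 27.8 and 26.4 CPM in control (log2 change −3.67 ± 0.20, adjusted p = 1.17e-11). Dusp6, a phosphatase that ERK signalling induces, had 222, 227 and 227 CPM in SEG, against 29.4, 23.7 and 26.7 CPM in control (log2 change 3.08 ± 0.17, adjusted p = 9.69e-12). Of 39 Wnt genes, 10 rose and 9 fell. Wnt5a, a ligand of the non-canonical arm, had 213, 202 and 229 CPM in SEG, against 19.2, 22.7 and 19.9 CPM in control (log2 change 3.38 ± 0.30, adjusted p = 1.71e-08). The inhibitors split, since Dkk2 had 28.9, 21.98 and 26.3 CPM in SEG, against 1.84, 1.19 and 1.48 CPM in control (log2 change 4.10 ± 0.23, adjusted p = 1.29e-11). Dkk3 had 15.03, 14.4 and 17.9 CPM in SEG, against 222, 283 and 266 CPM in control (log2 change −4.02 ± 0.16, adjusted p = 6.57e-14) and Sfrp1 had 180.3, 172 and 187 CPM in SEG, against 901, 1012 and 992 CPM in control (log2 change −2.43 ± 0.14, adjusted p = 3.01e-11).

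BMP and Id genes were even, with 9 of 33 higher and 9 lower. Bmp4 had 88.9, 91.5 and 86.5 CPM in SEG, against 4.35, 5.94 and 5.27 CPM in control (log2 change 4.10 ± 0.12, adjusted p = 1.08e-15). Chrdl1, a secreted BMP antagonist, had 4.45, 3.70 and 4.37 CPM in SEG, against 0 counts in each control library, at least 80.2-fold higher. Bmpr2, a receptor gene mutated in pulmonary arterial hypertension, rose to 318 ± 57.8 CPM in SEG, against 138 ± 12.1 CPM in control (1.21 ± 0.33), and Id1, a BMP target, did not pass at 79.0 ± 0.852 CPM in SEG, against 62.2 ± 5.67 CPM in control (0.35 ± 0.20). Of 24 TGF-beta genes, 7 rose and 10 fell. Inhbb, the activin B chain, had 17.7, 17.8 and 20.0 CPM in SEG, against 299, 331 and 306 CPM in control (log2 change −4.07 ± 0.13, adjusted p = 4.68e-15). Tgfb2 rose to 80.7 ± 5.17 CPM in SEG, against 25.9 ± 2.70 CPM in control (1.64 ± 0.14). The IGF list had 1 gene higher, Igfbp3, and 4 of 15 lower, or 7 lower with day 3 libraries only.

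Contractile and pericyte genes moved in both directions. Of 26 smooth muscle and contractile genes, 38.5% were called: 7 rose and 3 fell, beside 20.0% and 20.2% of all genes. With day 3 libraries only, 15 rose and 6 fell, beside 4315 and 4268 of all 13964 genes tested in that fit. Acta2, smooth muscle actin, which activated fibroblasts also make, had 642, 836 and 632 CPM in SEG, against 300.1, 260.4 and 287 CPM in control (log2 change 1.32 ± 0.18, adjusted p = 5.17e-06). Tagln, transgelin, had 385, 522 and 375 CPM in SEG, against 243, 214 and 240.3 CPM in control (log2 change 0.88 ± 0.21, adjusted p = 0.00214). Replicate 2 was the highest SEG library in both. Mylk, the smooth muscle light chain kinase, fell to 1.49 ± 0.362 CPM in SEG, against 6.17 ± 1.20 CPM in control (−2.04 ± 0.30). Of 12 pericyte genes, 5 rose and 3 fell, with Cspg4, or NG2, at 34.6 ± 5.45 CPM in SEG, against 8.32 ± 1.4999 CPM in control (2.06 ± 0.18) and Rgs5 at 6.92 ± 2.24 CPM in SEG, against 0.554 ± 0.0918 CPM in control (3.63 ± 0.40), and with the aminopeptidase Anpep lower at 13.2 ± 1.28 CPM in SEG, against 119 ± 3.48 CPM in control (−3.17 ± 0.11).

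Of 46 interferon-stimulated genes, 38 fell and 1 rose (median log2 change −1.17), and between 28 and 37 fell when a library was left out. The 1 rise was lost without replicate 3 of SEG or replicate 2 or 3 of control. Ifit1, which binds foreign RNA, had 27.5, 9.80 and 24.6 CPM in SEG, against 118, 90.5 and 102 CPM in control (log2 change −2.33 ± 0.39, adjusted p = 6.40e-05). Oas3, a sensor that makes an alarm nucleotide, had 1.53, 1.28 and 2.39 CPM in SEG, against 13.3, 12.9 and 12.5 CPM in control (log2 change −2.88 ± 0.29, adjusted p = 9.57e-08). Irf7, a factor of the interferon response, had 20.7, 16.6 and 35.6 CPM in SEG, against 82.8, 76.3 and 75.9 CPM in control (log2 change −1.69 ± 0.35, adjusted p = 5.48e-04). Every SEG library was below every control library in all 3, and replicate 2 was the lowest SEG library. Genes of class I antigen presentation fell at 18 of 22 members and rose at 3. Reads of the heavy chain genes may be split among similar copies. B2m, the light chain they share, had 672, 578 and 658 CPM in SEG, against 1108, 1066 and 991 CPM in control (log2 change −0.73 ± 0.09, adjusted p = 1.14e-06). Of 22 complement genes, 11 fell and 1 rose. C3 had 33.5, 37.4 and 43.4 CPM in SEG, against 246, 298 and 322 CPM in control (log2 change −2.92 ± 0.15, adjusted p = 4.47e-12). Serping1, the inhibitor of C1, had 162, 159 and 167 CPM in SEG, against 442, 463 and 492 CPM in control (log2 change −1.52 ± 0.10, adjusted p = 8.89e-11).

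Chemokine and acute phase genes fell at 14 of 30 members and rose at 5. Csf1, the growth factor of macrophages, had 394, 454 and 421 CPM in SEG, against 1935, 1748 and 1816 CPM in control (log2 change −2.12 ± 0.15, adjusted p = 3.31e-10). Il33, an alarm cytokine, had 0.409, 0.151 and 0.187 CPM in SEG, against 4.46, 6.04 and 4.50 CPM in control (log2 change −4.38 ± 0.29, adjusted p = 1.74e-10). Cxcl16, a membrane-bound chemokine, rose, with 146, 155 and 146 CPM in SEG, against 26.6, 23.5 and 25.1 CPM in control (log2 change 2.57 ± 0.15, adjusted p = 3.87e-11). The summed level of the 22 macrophage genes was 219 to 236 CPM in SEG and 175 to 179 CPM in control, with 2 members higher, Lyz2 and Cx3cr1, and 3 lower, Csf1r, Cd14 and Fcgr1, or 1 lower without replicate 1 of SEG. The call of Csf1r was lost without replicate 1 of SEG or of control. Lyz2, the lysozyme of macrophages, took most of that sum (139 ± 5.71 CPM in SEG, against 84.3 ± 1.27 CPM in control, 0.73 ± 0.12). Adgre1 averaged 1.54 ± 0.368 CPM in SEG, against 2.33 ± 0.364 CPM in control and did not pass, and Csf1r averaged 4.94 ± 0.526 CPM in SEG, against 7.15 ± 0.635 CPM in control. The part of macrophages in these changes was not tested.

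Of 18 adipogenic genes, 8 fell and 3 rose, among them Cebpb, a factor of adipogenesis and acute phase responses, with 67.5, 64.6 and 66.8 CPM in SEG, against 265, 292 and 262 CPM in control (log2 change −2.04 ± 0.23, adjusted p = 5.47e-07). Of 30 sterol and fatty acid synthesis genes, 20 fell and 1 rose, with small changes (median −0.50), and 1 fell in a test of changes beyond 1.5-fold. The 1 rise was lost whichever of the 6 libraries was left out. Idi1, of the isoprenoid branch, had 176, 182 and 179 CPM in SEG, against 304, 313 and 309 CPM in control (log2 change −0.79 ± 0.11, adjusted p = 6.04e-06). The ferritin genes were among the largest losses in CPM: Fth1, the heavy chain, had 750.5, 782 and 756 CPM in SEG, against 2557, 2696 and 2695 CPM in control (log2 change −1.80 ± 0.19, adjusted p = 1.50e-07). Ftl1, the light chain, had 2659.8, 2778 and 2641 CPM in SEG, against 4949.6, 4929 and 5106 CPM in control (log2 change −0.89 ± 0.27, adjusted p = 0.0123). Both have processed copies elsewhere in the genome with which reads may be shared. Gpx3, a secreted glutathione peroxidase, had 493, 496 and 529 CPM in SEG, against 2181, 2429 and 2641 CPM in control (log2 change −2.26 ± 0.15, adjusted p = 1.64e-10). Lrp1, a scavenger receptor, fell to 1332 ± 157 CPM in SEG, against 3352 ± 91.5 CPM in control (−1.33 ± 0.22). Kcne4, a potassium channel subunit, had 10.02, 12.1 and 12.2 CPM in SEG, against 219, 244 and 235 CPM in control (log2 change −4.34 ± 0.15, adjusted p = 9.78e-15). Agt, angiotensinogen, had 0.153, 0.339 and 0.0748 CPM in SEG, against 9.15, 9.96 and 11.7 CPM in control (log2 change −5.71 ± 0.35, adjusted p = 5.78e-11).

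Genes of DNA replication and mitosis were lower by small amounts. Of 52 members, 24 fell and 1 rose (median −0.39), 41 fell with day 3 libraries only, and 2 fell in a test of changes beyond 1.5-fold. Tk1, thymidine kinase, had 15.5, 16.5 and 12.9 CPM in SEG, against 37.5, 38.0 and 37.7 CPM in control (log2 change −1.33 ± 0.23, adjusted p = 1.06e-04). Ccnb1, cyclin B1, fell to 45.8 ± 2.72 CPM in SEG, against 70.7 ± 2.47 CPM in control (−0.63 ± 0.12), and Cdk1 did not pass at 54.1 ± 6.21 CPM in SEG, against 62.1 ± 2.11 CPM in control (−0.20 ± 0.12). Larger changes were those of Ccnd1, cyclin D1, with 192, 190.4 and 196 CPM in SEG, against 778, 699 and 767 CPM in control (log2 change −1.96 ± 0.09, adjusted p = 3.00e-13), and of Cdkn1c, the CDK inhibitor p57, with 13.04, 11.9 and 12.9 CPM in SEG, against 53.6, 65.1 and 62.7 CPM in control (log2 change −2.26 ± 0.20, adjusted p = 9.32e-09). Both the cyclin and the inhibitor fell. Rb1, the retinoblastoma gene, rose, with 87.5, 74.4 and 87.0 CPM in SEG, against 21.03, 19.9 and 17.7 CPM in control (log2 change 2.09 ± 0.26, adjusted p = 1.40e-06), and Cdkn1a, or p21, did not pass at 316 ± 4.48 CPM in SEG, against 315 ± 3.35 CPM in control (0.01 ± 0.08). Of 18 CDK inhibitors, cyclins and their partners, 3 rose and 7 fell, or 6 and 11 with day 3 libraries only, and 1 rose without replicate 3 of control. Of 23 p53 target genes, 8 rose and 5 fell, with Pmaip1, or NOXA, at 113 ± 7.24 CPM in SEG, against 12.6 ± 1.42 CPM in control (3.16 ± 0.11) and Plk2 at 165 ± 6.61 CPM in SEG, against 25.9 ± 1.55 CPM in control (2.67 ± 0.11).

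Of 31 glycolysis genes, 5 rose and 8 fell, or 8 and 15 with day 3 libraries only, and of 41 respiratory chain genes 4 rose and 0 fell, or 14 and 5. All 4 called respiratory genes, Uqcrc2, Uqcrfs1, Cycs and Cox5a, lost their call without at least 4 of the 6 libraries in turn. Slc2a3, the glucose transporter GLUT3, rose, with 64.8, 67.6 and 58.5 CPM in SEG, against 8.42, 9.41 and 8.55 CPM in control (log2 change 2.85 ± 0.15, adjusted p = 3.81e-12), and Slc2a1, or GLUT1, did not pass at 64.9 ± 4.09 CPM in SEG, against 70.9 ± 2.33 CPM in control (−0.13 ± 0.08). Pfkfb3, the glycolytic regulator of sprouting endothelium, rose to 64.5 ± 3.18 CPM in SEG, against 33.0 ± 2.33 CPM in control (0.97 ± 0.19). Genes of the unfolded protein response fell at 11 of 32 and rose at 4, and 2 fell beyond 1.5-fold. Immediate early genes rose at 11 of 27 and fell at 6, with Jun at 131 ± 2.73 CPM in SEG, against 31.1 ± 1.995 CPM in control (2.07 ± 0.12) and Nr4a1 at 12.6 ± 0.811 CPM in SEG, against 34.2 ± 2.38 CPM in control (−1.44 ± 0.14). YAP targets were even, with 8 of 22 higher and 7 lower, and the classic targets Ccn1 and Ccn2 moved apart, Ccn1 to 568 ± 54.1 CPM in SEG, against 355 ± 12.1 CPM in control (0.68 ± 0.09) and Ccn2 to 1636 ± 41.7 CPM in SEG, against 2422 ± 157 CPM in control (−0.57 ± 0.08).

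**Figure D4:**
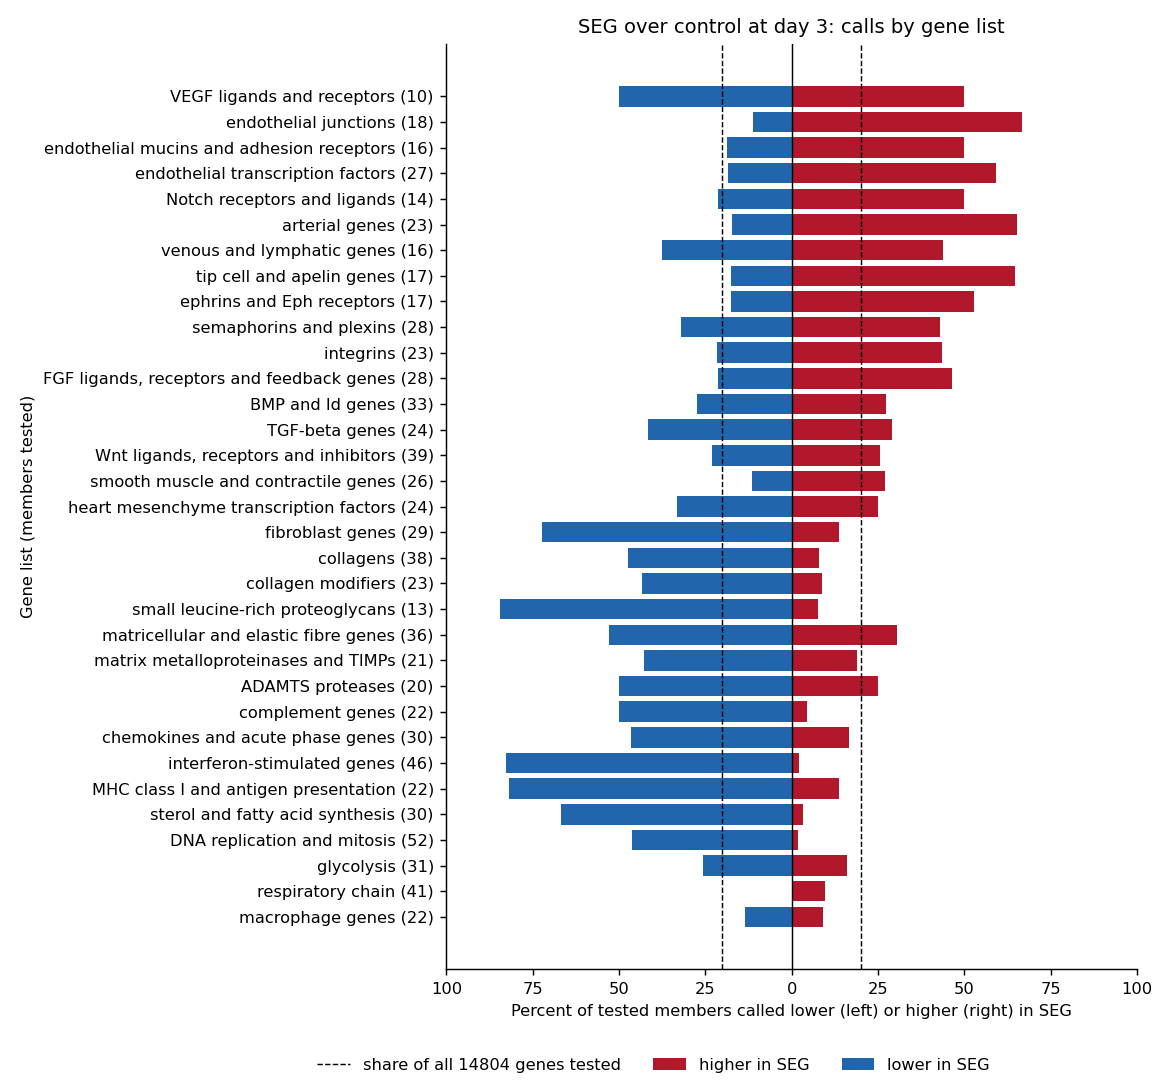
Percent of tested members called lower (left of 0) and higher (right of 0) in SEG over control at day 3, for 33 gene lists. The dashed lines mark the 20.2% and 20.0% of all 14804 tested genes. The bars of junction, arterial and tip cell genes reach furthest to the right, and those of proteoglycans, interferon-stimulated genes and class I antigen presentation furthest to the left.

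Lists of markers of other cell types that a heart culture could hold were also counted. Of 16 lymphocyte genes 3 passed the filter on low counts, of 20 cardiomyocyte genes 7, of 18 blood genes 8 and of 23 endoderm genes 12. The summed level of the lymphocyte genes was 13.4 to 15.8 CPM in SEG and 0.842 to 1.07 CPM in control, and the defining T cell genes Cd3d, Cd3e and Cd4 had 0 counts in all 6 libraries. The sum in SEG was nearly all Ltb, lymphotoxin beta, with 13.1, 15.05 and 12.5 CPM and 2 counts over the control libraries, a ratio of 392 (95% counting interval 108 to 3240.2). Cardiomyocyte genes summed to 8.86 to 11.3 CPM in SEG and 57.8 to 63.3 CPM in control, with Tnnt2, cardiac troponin T, at 5.42, 6.64 and 5.72 CPM in SEG, against 56.5, 52.4 and 54.5 CPM in control (log2 change −3.20 ± 0.34, adjusted p = 2.15e-07) and Myl2, Myl3 and Actc1 at 0 counts throughout. Of 10 epithelial and mesothelial genes, 5 fell and 1 rose, or 2 rose without replicate 3 of SEG, with Msln, mesothelin of the epicardial surface, at 0.311 ± 0.0615 CPM in SEG, against 3.37 ± 0.232 CPM in control (−3.40 ± 0.27). Tubb3, a tubulin of neurons that cultured fibroblasts also make, fell to 24.4 ± 1.20 CPM in SEG, against 141 ± 9.53 CPM in control (−2.53 ± 0.15). Of 12 endoderm genes, 5 rose and 2 fell, or 8 and 4 with day 3 libraries only. Without replicate 1 or 2 of SEG or of control 1 endoderm gene fell, and Foxa1, Foxa3 and Alb had 0 counts in all 6 libraries. The endoderm list summed to 9861 to 10354 CPM in SEG and 10580.3 to 11505 CPM in control. Most of that sum was Col4a1, a basement membrane chain that fibroblasts also make, given above. The red cell genes Hba-a1 and Hbb-bs had 0 counts in all 6 libraries.

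SEG at day 3 was also set against the cells labelled with single factors, to see where it differed from each. The factor transcripts were not at equal levels. Erg averaged 1268 CPM in SEG and 7087 in Erg cells (log2 difference −2.48 ± 0.20, adjusted p = 2.18e-09). Sox17 averaged 1008 CPM in SEG and 1606 in Sox17 cells, and did not pass (−0.67 ± 0.28, adjusted p = 0.0948). The part of these levels in the differences below was not tested. Against Erg cells, 3809 genes were higher (25.7%) and 3742 lower (25.3%) in SEG, and against Sox17 cells 2075 (14.0%) and 2109 (14.2%). In both comparisons at once, 949 genes (6.41%) were higher in SEG and 630 (4.26%) lower. These 2 comparisons share the SEG libraries. Among the gene lists, 8 of 16 mucins and adhesion receptors, 11 of 27 endothelial transcription factors, 11 of 23 arterial genes and 6 of 18 junction genes were higher in SEG than in both. In the same order, 0, 1, 0 and 2 were lower in SEG than in both, and 7, 7, 4 and 4 lower than in Erg cells. Of the 16 mucins and adhesion receptors, 13 were above control and 0 below in Erg cells, and 8 and 7 in Sox17 cells. For the transcription factors, which include Erg, these counts were 15 and 5, and 9 and 6. For arterial genes they were 7 and 8, and 11 and 9, and for junction genes 8 and 2 in each. Several falls were not particular to SEG. Of 46 interferon-stimulated genes, 37 were below control and 1 above in Erg cells, and 30 and 1 in Sox17 cells. For 29 fibroblast genes these counts were 18 and 6 in Erg cells and 20 and 5 in Sox17 cells. For 13 small leucine-rich proteoglycans they were 9 and 3, and 12 and 0. The shares of all genes called in Erg or Sox17 cells over control were not counted. The list counts over control in those cells therefore have no background beside them.

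Cd93 averaged 454 ± 53.3 CPM in SEG, 17.2 ± 1.38 in Erg cells and 1.58 ± 0.0847 in Sox17 cells (log2 difference 4.72 ± 0.24, adjusted p = 3.02e-12 over Erg, and 8.16 ± 0.30, adjusted p = 4.36e-14 over Sox17). F11r averaged 72.1 ± 1.18 CPM in SEG, 2.52 ± 0.457 in Erg cells and 5.25 ± 0.377 in Sox17 cells (log2 difference 4.86 ± 0.21, adjusted p = 2.08e-13 over Erg, and 3.78 ± 0.19, adjusted p = 8.73e-12 over Sox17). Col18a1 averaged 798 ± 56.5 CPM in SEG, 37.9 ± 1.76 in Erg cells and 34.7 ± 2.90 in Sox17 cells (log2 difference 4.4 ± 0.09, adjusted p = 4.46e-18 over Erg, and 4.52 ± 0.09, adjusted p = 8.55e-18 over Sox17). Control levels were 2.56 ± 0.620, 4.03 ± 0.572 and 42.2 ± 1.99 CPM for Cd93, F11r and Col18a1, so SEG lay above all 3 other groups. Mcam, Gja4, Pgf and Efna1 had the same order, with SEG higher than both, and Fabp4 too (384 ± 17.7 CPM in SEG, 61.5 ± 1.79 in Erg cells, 58.2 ± 5.63 in Sox17 cells).

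Other genes of SEG were shared with one factor. Nrp1, Thbd, Edn1 and Slit2 were higher in SEG than in Erg cells and did not pass against Sox17 cells: Edn1 averaged 316 ± 15.1 CPM in SEG, 5.21 ± 0.550 in Erg cells and 339 ± 16.04 in Sox17 cells, and Thbd 362 ± 23.1, 48.0 ± 1.25 and 360.0 ± 62.6. A p that missed the threshold does not show that the levels were alike; the log2 difference of Edn1 over Sox17 was −0.10 ± 0.13, adjusted p = 0.640. Clec14a was higher in SEG than in Sox17 cells and did not pass against Erg cells, with 7.68 ± 1.47 CPM in SEG, 5.98 ± 0.468 in Erg cells and 0.532 ± 0.213 in Sox17 cells.

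Some endothelial genes were lower in SEG than in Erg cells. Flt4 averaged 71.9 ± 5.46 CPM in SEG and 377 ± 6.17 in Erg cells (log2 difference −2.39 ± 0.25, adjusted p = 9.84e-08). Esam averaged 13.2 ± 1.67 CPM in SEG and 84.7 ± 3.08 in Erg cells (−2.69 ± 0.19, adjusted p = 2.84e-10). Apln averaged 4.17 ± 0.646 CPM in SEG and 722 ± 27.6 in Erg cells (−7.43 ± 0.20, adjusted p = 2.28e-16). Sox18, Jag2, Icam1, Selp and Sele were also lower in SEG than in Erg cells, with Sox18 at 1.82 ± 0.700 and 28.2 ± 1.79 CPM and Sele at 3.30 ± 0.343 and 20.9 ± 0.737 CPM. Against Sox17 cells, the largest deficits of SEG were at genes near 0 in SEG: Pmch, the precursor of melanin-concentrating hormone, had 0 counts in SEG and 106 ± 5.64 CPM in Sox17 cells, and Cyp2j5 had 0.118 ± 0.0747 CPM in SEG and 46.2 ± 6.56 in Sox17 cells. Igf1 averaged 13.1 ± 1.72 CPM in SEG and 469.6 ± 61.2 in Sox17 cells (−5.16 ± 0.19, adjusted p = 8.05e-14), and Acta2 703 ± 115 and 1419.8 ± 278 (−1.01 ± 0.18, adjusted p = 1.60e-04). Against Erg cells the deficits were largest at Lyzl4, Lrrc4b, Col13a1, Tmem132b and Lrg1, with 0.0250 ± 0.0217 CPM of Lrg1 in SEG and 85.5 ± 2.23 in Erg cells.

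**Figure D5:**
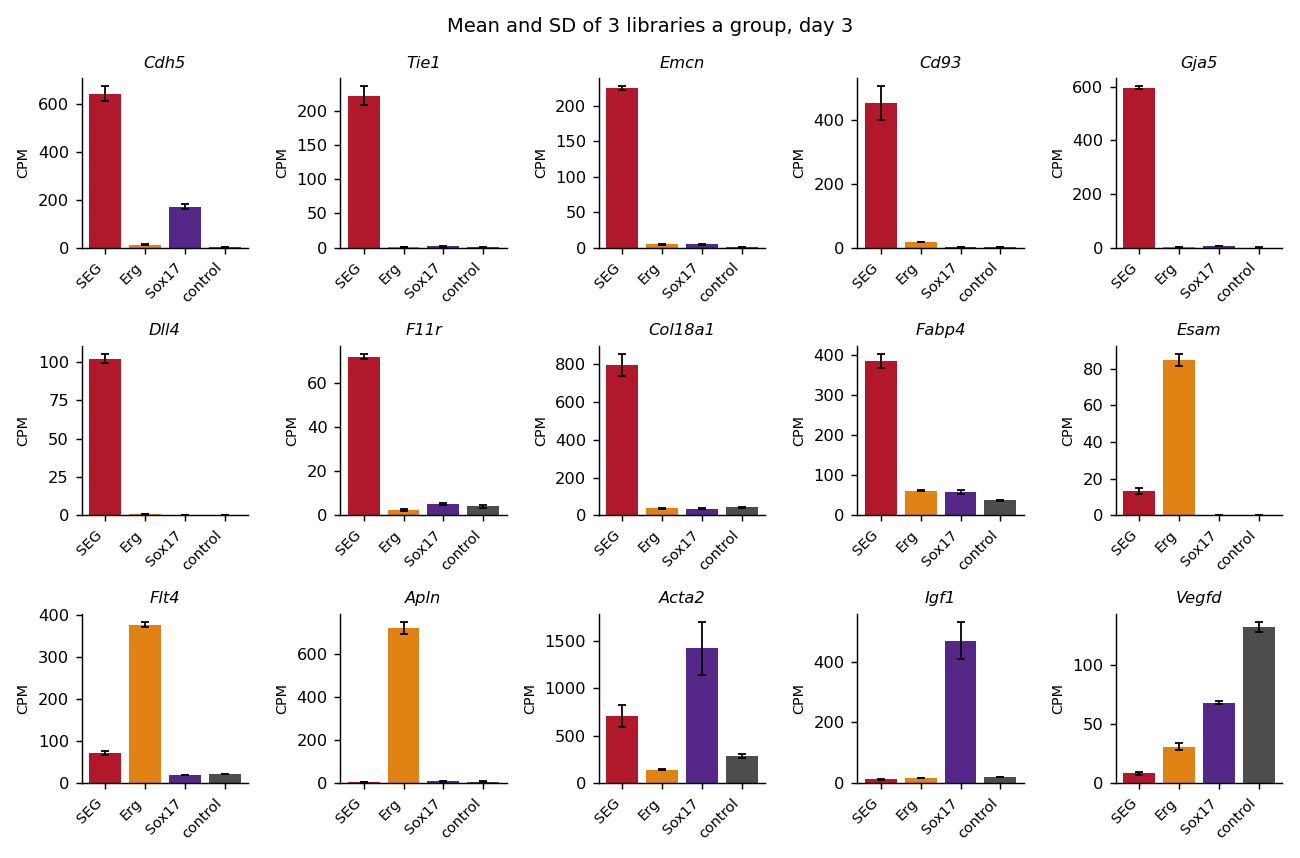
Mean CPM (linear axes from 0, one scale a gene) in SEG, Erg, Sox17 and control libraries at day 3 for 15 genes; error bars are the SD over 3 libraries. Cd93, F11r, Col18a1 and Fabp4 peak in SEG, Esam, Flt4 and Apln in Erg, and Igf1 and Acta2 in Sox17, while Vegfd is highest in control.

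The SEG effect was also compared with that at day 7, as the difference between the log2 change of SEG over control at day 7 and at day 3. That difference was positive at 902 genes (6.09%) and negative at 854 (5.77%), and the control libraries of each day entered it. Sema3g, the arterial semaphorin, had 468 ± 54.5 CPM in SEG and 0.108 ± 0.0657 in control at day 7 (difference 4.67 ± 0.64, adjusted p = 4.09e-05). Adgrf5, an adhesion receptor of lung and kidney endothelium, averaged 5.32 ± 1.10 CPM in SEG, against 1.18 ± 0.127 CPM in control at day 3, and 72.0 ± 14.8 CPM in SEG and 0.493 ± 0.0630 in control at day 7 (5.02 ± 0.32, adjusted p = 1.62e-09). Mmp9, a gelatinase, had 0.102, 0.113 and 0.187 CPM in SEG, against 0.279, 0.198 and 0.307 CPM in control at day 3, and 17.6 ± 6.01 CPM in SEG and 0.499 ± 0.324 in control at day 7 (5.99 ± 0.69, adjusted p = 5.03e-06). Sema3g was already far above control at day 3, as given above, whereas Adgrf5 and Mmp9 were low in SEG then. Mcam, Hey1 and Pdgfb also had a larger SEG effect at day 7, Mcam with 351 ± 9.90 CPM in SEG and 2.17 ± 0.384 in control (2.40 ± 0.19, adjusted p = 3.97e-08). Other genes had a smaller SEG effect at day 7. Esm1 averaged 24.9 ± 3.59 CPM in SEG and 2.82 ± 0.875 in control at day 7 (−2.48 ± 0.30, adjusted p = 1.03e-05), and Mest, an imprinted gene, 31.8 ± 1.03 and 1.13 ± 0.271, after 293 ± 34.9 CPM in SEG, against 1.24 ± 0.322 CPM in control at day 3 (−3.06 ± 0.43, adjusted p = 5.08e-05). Igfbp3 averaged 1141 ± 51.2 CPM in SEG and 146 ± 17.1 in control at day 7 (−2.51 ± 0.15, adjusted p = 8.93e-10).

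Falls that widened by day 7 were partly those of genes that climbed in control. C3 averaged 26.6 ± 4.60 CPM in SEG and 2438 ± 299 in control at day 7 (−3.60 ± 0.21, adjusted p = 8.93e-10), Hp, the plasma protein haptoglobin, 0.604 ± 0.370 and 167 ± 34.9 (−4.71 ± 0.60, adjusted p = 1.73e-05), and Gsn 333 ± 51.8 and 11599.8 ± 727 (−2.80 ± 0.19, adjusted p = 4.37e-09). In SEG each stayed at or below its day 3 mean. Replicate 1 of SEG at day 7 stood apart from the other 2 libraries of its group, and without it and replicate 1 of Sox17 at day 7 the counts were 2127 and 1647.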

How the data were processed

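Messenger RNA of mouse heart cells was sequenced in 24 libraries. The authors deposited a table of whole-number read counts per Ensembl gene, with Salmon, DESeq2 and build mm10 named, per the submitters' processing notes. No version, and no account of how estimates became whole counts, is given in these sources. Of 35727 gene IDs, 35422 had a symbol. Genes were filtered with filterByExpr (minimum count 10), scaled by TMM and fitted with edgeR 4.0.16 (R 4.3.3) as 8 group means over all 24 libraries, by the quasi-likelihood test with Benjamini-Hochberg adjustment at 0.05 over 14804 genes. SEs are the log2 change over the square root of F. Intervals, ratios and bounds from counts of 0, with a floor of 3 counts, cover counting error only. The fit was tested on simulated counts.

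Genes were named by rule: Sox17 and Erg, the 15 largest rises and falls with at least 10 CPM and no overlap of groups, the 10 largest gains and losses in CPM, the highest genes with 0 control counts, the 5 largest differences each way for the other comparisons, and members of the gene lists. Some genes the rule names are not reported here. The members and lists were chosen with earlier results of these data known. Alternatives were DESeq2 1.42.0, other size factors, no filter, fewer libraries, a replicate block, a test beyond 1.5-fold, and each library left out.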

Additional observations from a re-analysis of the deposited data

How the results depend on the processing

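The directions and calls of SEG over control were compared across the alternatives. The main counts were 2958 genes higher and 2988 lower over control, 3809 and 3742 over Erg, 2075 and 2109 over Sox17, and 902 and 854 for day 7 minus day 3. A test of changes beyond 1.5-fold gave 1332 and 1248, 1678 and 1917, 754 and 776, and 229 and 273. The groups compared alone gave 3253 and 3317 over Sox17 and 1405 and 1341 for the days. Day 3 libraries alone gave 3618 and 3685 over Sox17. Without both outlying day 7 libraries, the replicate 1 of SEG and of Sox17, there were 4365 and 4240 over control. The same setting gave 3575 and 3700 over Sox17 and 2127 and 1647 for the days. With day 3 libraries only, 5800 of the calls over control (97.5%) were shared. Leaving out 1 library gave 2582 to 2646 higher and 2554 to 2666 lower over control. Equal replicate numbers did not pair the libraries (correlations 0.015, −0.009 and 0.03), and with the replicate block 2950 genes were higher and 2981 lower over control.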
